A study of Mus musculus with 12 samples.

Results

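*Cd4*, *Cd8a*, *Cd8b1*, *Gm44174* and *Gm43698* are 5 of the 49585 genes in the count table. The first 3 were chosen because they encode the CD4 and CD8 co-receptors by which the cells were sorted. *Gm44174* and *Gm43698* were chosen by measured values, as they were among the genes with the largest differences between B6 CD4+ and CD8+ cells and between CD8.1 and CD8.2 cells. Their levels in these 2 lineage comparisons are therefore given as a description, with no test, and the same holds for the co-receptor genes, whose products defined the gates. Tests of these genes were made only for CD8.1 against B6 CD4+ cells and for CD8.2 against B6 CD8+ cells.

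RNA-seq covered LN T cells of 4 groups with 3 samples each, sorted as CD62L+ and H57+ (the antibody H57 binds TCRβ). All came from male mice 6 to 10 weeks old, and RNA was prepared from pools of sorted cells. B6 CD4+ and B6 CD8+ cells came from C57BL/6 mice with unaltered co-receptor loci. CD8.1 and CD8.2 cells came from CD8Dual mice (also labelled 8in4), in which both *Cd4* alleles were altered to encode CD8β and CD8α.1 in place of CD4, joined by an internal ribosome entry site, while the *Cd8* locus still encoded CD8α.2 and CD8β. CD8α.1 and CD8α.2 are allelic forms of the same chain. Counts per gene therefore cannot tell whether a *Cd8a* or *Cd8b1* read came from the altered *Cd4* locus or from the *Cd8* locus. The sources used here do not say which parts of *Cd8a* and *Cd8b1* beyond the coding sequences the altered allele carries. Levels and ratios of these genes in CD8.1 cells may therefore not compare directly with those of B6 CD8+ cells. Nothing in the labels says which samples shared animals, so p-values measure only the spread between these samples.

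CD4 and CD8 are co-receptors: CD4 binds MHC class II and CD8 binds MHC class I, and each brings the kinase Lck to the T cell receptor. CD8 on conventional T cells is a dimer of an α chain, encoded by *Cd8a*, and a β chain, encoded by *Cd8b1*. Thymocytes first express both co-receptors, and helper cells then keep *Cd4* and silence the *Cd8* genes while cytotoxic cells do the reverse. ThPOK, the product of *Zbtb7b*, and Runx3 are transcription factors known to set this choice.

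On the mouse assembly GRCm38 (mm10) with the GENCODE M21 annotation, 4 of the 5 genes lie on chromosome 6. *Cd8b1* (ENSMUSG00000053044.8) spans bases 71322788 to 71337494, *Gm44174* (ENSMUSG00000108289.1) bases 71353035 to 71373284 and *Cd8a* (ENSMUSG00000053977.13) bases 71373427 to 71379173, all on the plus strand. *Cd4* (ENSMUSG00000023274.14) spans bases 124864692 to 124888221 on the minus strand. *Gm43698* (ENSMUSG00000107266.1), although grouped by name with transcripts of the *Cd8* locus, lies on chromosome 5 from 67360387 to 67366599 on the plus strand. The position goes against that label, and *Gm43698* is treated here as a transcript of another locus. Its nearest genes are *Slc30a9*, which ends 1943 bases before it, and *Bend4*, which ends 25547 bases beyond it on the opposite strand.

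*Gm44174* and *Gm43698* are annotated as lincRNAs, long RNAs with no coding sequence. *Gm44174* has 1 transcript of 141 bases in 2 exons, separated by an intron of 20109 bases. It begins 15540 bases after the end of *Cd8b1* and ends 142 bases before the annotated start of *Cd8a*, so that its second exon, of 60 bases, lies in the promoter region of *Cd8a*. The sequences below are shown for this reason. The first line is the *Gm44174* transcript with its second exon in capitals, and the second is the stretch of 250 bases before the *Cd8a* start (RefSeq promoter sequence, GRCm38, chr6:71373177-71373426, plus strand) with the same exon in capitals.

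*Gm44174* transcript: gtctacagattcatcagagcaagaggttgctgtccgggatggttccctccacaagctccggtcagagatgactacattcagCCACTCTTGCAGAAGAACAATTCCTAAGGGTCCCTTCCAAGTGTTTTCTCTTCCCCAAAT
*Cd8a* upstream: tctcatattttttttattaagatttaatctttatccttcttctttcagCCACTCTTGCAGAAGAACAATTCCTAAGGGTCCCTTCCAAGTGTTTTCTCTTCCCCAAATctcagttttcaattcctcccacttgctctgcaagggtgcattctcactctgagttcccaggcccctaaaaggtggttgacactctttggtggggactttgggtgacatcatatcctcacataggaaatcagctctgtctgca

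The exon begins 48 bases into this stretch, directly after the dinucleotide AG, which is the usual last pair of an intron. No annotated exon of *Cd8a* overlaps it. Whether part of the *Gm44174* reads came from a *Cd8a* transcript that began further upstream was not tested. For comparison, the *Gm43698* transcript (chr5:67360387-67365550, plus strand) is shown from its first base, with the first 75 bases of the second exon in capitals.

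*Gm43698* transcript: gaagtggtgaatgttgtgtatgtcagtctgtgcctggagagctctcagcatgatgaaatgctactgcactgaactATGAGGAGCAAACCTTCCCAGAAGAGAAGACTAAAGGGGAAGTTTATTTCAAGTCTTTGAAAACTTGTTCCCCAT

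In a search of annotated transcripts for stretches of at least 50 bases with at least 90% identity, none of the 5 genes shared sequence with another of the 5, and *Gm44174* and *Gm43698* shared with 0 other genes. *Cd8a* shared such a stretch with 2 other genes and *Cd4* with 6. *Cd8b1* shared one with 1481 other genes, always within the last 175 bases of its transcript of 1483 bases, which lie beyond its coding sequence. The part of this stretch in the *Cd8b1* counts was not tested.

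The total count per sample was 18667474 to 37110502 (median 22580730). Expression is given as CPM, counts divided by the TMM-normalized library size, and 3 counts corresponded to 0.0875 to 0.167 CPM. Intervals and such floors cover counting error only. The 5 T cell markers summed to 2625 to 3883 CPM in the 12 samples. Markers of other cells were lower: 20.0 to 96.1 CPM for 3 B cell genes, 1.85 to 19.2 for 3 macrophage and monocyte genes, 0.334 to 5.64 for 4 genes of conventional dendritic cells, 0.273 to 2.60 for 2 NK cell genes and 7.84 to 15.2 for 2 γδ T cell genes. The 2 genes listed for plasmacytoid dendritic cells, of which *Ccr9* is also expressed by CD8+ cells, summed to 5.82 to 396 CPM. No marker was at 0 in all samples of a group. CD8.1 replicate 1 and CD8.2 replicate 3 stood apart from their groups. By a chi-square of counts per gene, which grows with depth, CD8.1 replicate 1 differed from the others by 28.9 and 30.4 (8.21 for the other pair) and CD8.2 replicate 3, the deepest library, by 79.5 and 52.9 (12.9 for the other pair). Without CD8.1 replicate 1 the number of genes that passed against B6 CD4+ cells rose from 1674 to 2958, and against B6 CD8+ cells that of CD8.2 cells, which share the estimate of spread, from 1042 to 1913. Without CD8.2 replicate 3 the latter number was 440, but it was also 554 without CD8.2 replicate 1 and 441 without CD8.2 replicate 2.

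*Cd4* was expressed at a high level in B6 CD4+ cells, at a low level in CD8.1 cells and close to the floor in the other groups. Its level was 1004, 995 and 908 CPM in the B6 CD4+ samples and 0.287, 0.109 and 0.337 CPM in the B6 CD8+ samples, the latter from 7, 3 and 7 counts. In CD8.1 cells it was 51.5, 50.6 and 47.2 CPM, and in CD8.2 cells 1.79, 1.11 and 1.52 CPM. No 2 groups overlapped, and the order was B6 CD4+, CD8.1, CD8.2 and B6 CD8+. CD8.1 cells held 5.13% ± 0.234 (SD, n = 3) of the mean *Cd4* level of B6 CD4+ cells. The sources used here do not say which exons of *Cd4* the altered allele retains, so these reads cannot be placed on the transcript.

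*Cd8a*, which encodes the α chain, stood at 0.682, 1.34 and 1.49 CPM in B6 CD4+ cells and at 1390, 1479 and 1400 CPM in B6 CD8+ cells. In CD8.1 cells it was 179.4, 196.5 and 201.3 CPM, and in CD8.2 cells 1432, 1492 and 1455 CPM. The CD8.2 and B6 CD8+ samples overlapped, while CD8.1 cells lay between these and B6 CD4+ cells. CD8.1 cells, which were sorted by their CD8α.1 protein, had 13.5% ± 0.808 (SD, n = 3) of the mean RNA level of B6 CD8+ cells. As the length of *Cd8a* in the altered allele is not given, this share may not compare directly.

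*Cd8b1* followed the same order with a higher level in B6 CD4+ cells. It was at 30.0, 33.8 and 35.6 CPM there and at 2233, 2339 and 2133 CPM in B6 CD8+ cells. The CD8.1 samples were at 157, 216 and 206 CPM, and the CD8.2 samples at 1998, 1998 and 2009 CPM. The CD8.2 samples had an SD of 6.21 CPM and lay below every B6 CD8+ sample. CD8.1 cells had 8.64% ± 1.42 (SD, n = 3) of the mean level of B6 CD8+ cells, and CD8.1 replicate 1 was the lowest of its group. B6 CD4+ cells had 1.48% ± 0.129 of the B6 CD8+ level for *Cd8b1* and 0.0822% ± 0.0301 for *Cd8a* (SD, n = 3).

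*Gm44174* was detected in cytotoxic cells and at most at the floor in helper cells. Its level was 33.8, 38.4 and 31.7 CPM in B6 CD8+ cells and 22.8, 24.0 and 22.3 CPM in CD8.2 cells. It had 0 counts in all B6 CD4+ samples, and 0, 3 and 0 counts in CD8.1 samples. Thus it was at least 253.8-fold higher in B6 CD8+ than in B6 CD4+ cells, taking the highest floor of a library, and 492.3-fold higher in CD8.2 than in CD8.1 cells (exact 95% counting interval 168.2 to 2390). CD8.1 cells expressed *Cd8a* but had almost no counts of the transcript that ends at its promoter.

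*Gm43698* had the same kind of pattern from chromosome 5. It was at 24.1, 27.5 and 23.7 CPM in B6 CD8+ cells and at 18.8, 18.7 and 19.2 CPM in CD8.2 cells. The B6 CD4+ samples had 0, 2 and 2 counts and the CD8.1 samples 2 each. It was 433.9-fold higher in B6 CD8+ than in B6 CD4+ cells (exact 95% counting interval 169.2 to 1594) and 204.1-fold higher in CD8.2 than in CD8.1 cells (93.5 to 557.1). Neither lincRNA had overlapping ranges between cytotoxic and helper cells, which follows from their choice by this difference.

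**Figure D1:**
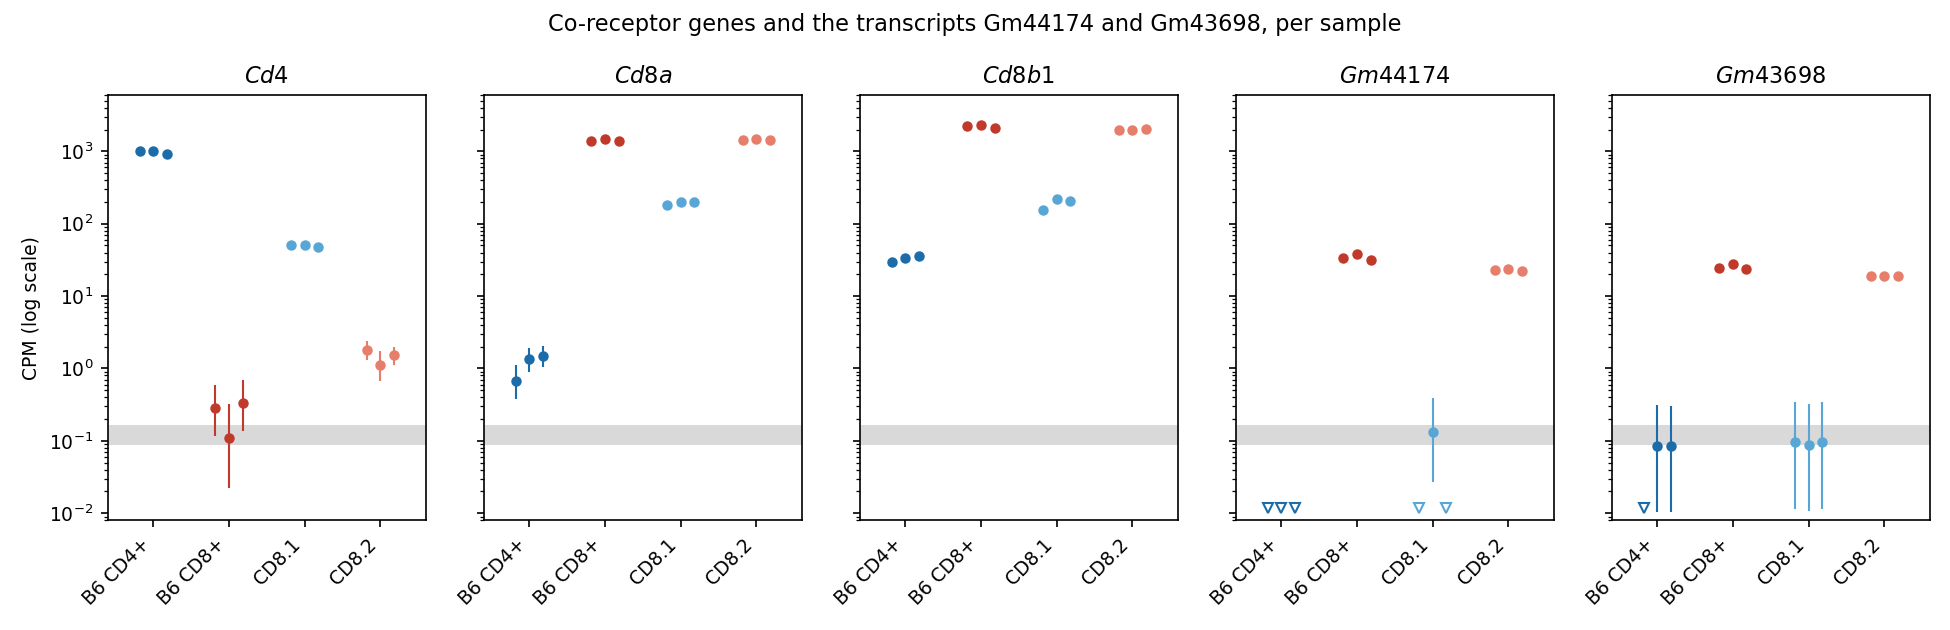
CPM of each gene per sample on a log axis, by group, with exact 95% Poisson intervals of the counts. Open triangles mark samples with 0 counts and the grey band spans the 3-count floors. *Cd8a* and *Cd8b1* sit at intermediate levels in CD8.1 cells, between 157 and 216 CPM, while both lincRNAs have at most 3 counts there.

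To compare levels between genes, CPM was divided by the summed exon length of each gene. Per kb of exon, *Cd8b1* was the highest in B6 CD8+ cells at 1507 ± 69.5, followed by *Cd8a* at 391.3 ± 13.4, *Gm44174* at 245.6 ± 24.5 and *Gm43698* at 35.7 ± 2.96 (CPM per kb, SD, n = 3). In CD8.1 cells, *Cd8b1* was at 130.2 ± 21.4, *Cd8a* at 52.9 ± 3.16 and *Cd4* at 12.3 ± 0.563 CPM per kb. The lengths used are those of the unaltered genes, 3637 bases for *Cd8a* and 1483 for *Cd8b1*, of which 741 and 639 are coding. As the length carried by the altered allele is not given, levels per kb in CD8.1 cells may not compare with those of other groups. In B6 CD4+ cells, *Cd4* was at 240.3 ± 13.2 CPM per kb. *Gm44174* is so short that its level per kb depends on how short fragments were counted, and this was not tested.

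The CD8.1 population was then compared with B6 CD4+ cells, which asks how the altered *Cd4* allele was expressed in helper cells. Of the 5 genes, 3 passed an adjusted p of 0.05 in the quasi-likelihood test of edgeR, adjusted by the Benjamini-Hochberg method, against 12.8% of the 13118 genes tested. The altered allele and the gates fix the outcome for these 3 co-receptor genes, so nothing is read from that count. For the same reason their changes are given as a description, without p-values. *Cd4* was lower in CD8.1 cells by a log2 fold change of -4.28 (SE 0.107), which is 19.5-fold. *Cd8a* was higher by 7.35 (SE 0.149) and *Cd8b1* by 2.54 (SE 0.109) on the log2 scale. These are 163.3-fold and 5.83-fold. *Gm44174* had 3 counts in all in CD8.1 and 0 in B6 CD4+ cells, and *Gm43698* 6 and 4 counts. Both were in the test only through their levels in cytotoxic cells, and at this depth a difference between the helper groups could not be detected. Without CD8.1 replicate 1, the log2 fold changes of *Cd4*, *Cd8a* and *Cd8b1* were -4.32, 7.38 and 2.66. B cell markers summed to 60.2 to 96.1 CPM in CD8.1 and 41.7 to 51.4 CPM in B6 CD4+ cells, and macrophage and monocyte markers to 11.2 to 16.2 and 2.41 to 5.53 CPM. The genes listed for plasmacytoid dendritic cells summed to 27.4 to 49.5 CPM in CD8.1 and 5.82 to 14.1 CPM in B6 CD4+ cells. Those of γδ T cells were at 13.9 to 15.2 and 10.8 to 11.8 CPM. Genes of conventional dendritic cells (0.334 to 0.885 and 0.474 to 0.978 CPM) and of NK cells overlapped between the groups. The part of such cells was not tested.

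CD8.2 cells were compared with B6 CD8+ cells, which asks whether the unaltered *Cd8* locus was read alike in cytotoxic cells of both strains. Again 3 of the 5 genes passed, against 7.94% of all genes tested. The *Cd4* locus is altered in CD8.2 cells, and the lincRNAs were chosen for, and tested through, their levels in these groups. Nothing is read from this count either, and the adjusted p-values of the lincRNAs below do not allow for that choice. *Cd4* was 6.43-fold higher in CD8.2 cells (log2 fold change 2.65, SE 0.282, adjusted p = 6.43e-05 by edgeR), with 114 counts against 17. *Gm44174* was lower by a log2 fold change of -0.59 (SE 0.14, adjusted p = 0.022 by edgeR), with 66.5% ± 2.55 of its B6 CD8+ level, and *Gm43698* by -0.41 (SE 0.118, adjusted p = 0.0464 by edgeR), with 75.3% ± 1.02 (SD, n = 3). All CD8.2 samples lay below all B6 CD8+ samples for both. The share of all genes without such overlap was not computed, so nothing is read from this lack of overlap.

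The calls of the lincRNAs depended on single libraries. That of *Gm44174* was lost without B6 CD8+ replicate 1 or 2 or without CD8.2 replicate 1, 2 or 3, with adjusted p of 0.0704 to 0.122 by edgeR. Without CD8.2 replicate 3 the log2 fold changes of *Gm44174* and *Gm43698* were -0.57 and -0.42. The call of *Gm43698* was lost without any 1 of the 6 libraries of the 2 groups (adjusted p 0.0605 to 0.207 by edgeR), and with no filter on low counts (0.0558). *Cd8a* did not pass, with a log2 fold change of 0.04 (SE 0.0974, adjusted p = 0.867 by edgeR), and neither did *Cd8b1*, at -0.16 (SE 0.1, adjusted p = 0.367 by edgeR). With a spread estimated from the compared groups only, *Cd8b1* passed at an adjusted p of 0.0432 by edgeR.

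Macrophage and monocyte markers summed to 7.09 to 19.2 CPM in CD8.2 and 1.85 to 4.47 CPM in B6 CD8+ cells, and B cell markers to 28.0 to 63.3 and 20.0 to 26.9 CPM. The 2 genes listed for plasmacytoid dendritic cells summed to 378.1 to 396.0 CPM in CD8.2 and 193.2 to 215.2 CPM in B6 CD8+ cells. These 3 lists moved with the *Cd4* difference, and their part in it was not tested. Genes of conventional dendritic cells went the other way, at 1.28 to 2.39 against 4.04 to 5.64 CPM, and those of NK cells and of γδ T cells overlapped between the groups. In bulk samples, a few cells with much *Cd4* RNA and a little RNA in every cell cannot be told apart.

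**Figure D2:**
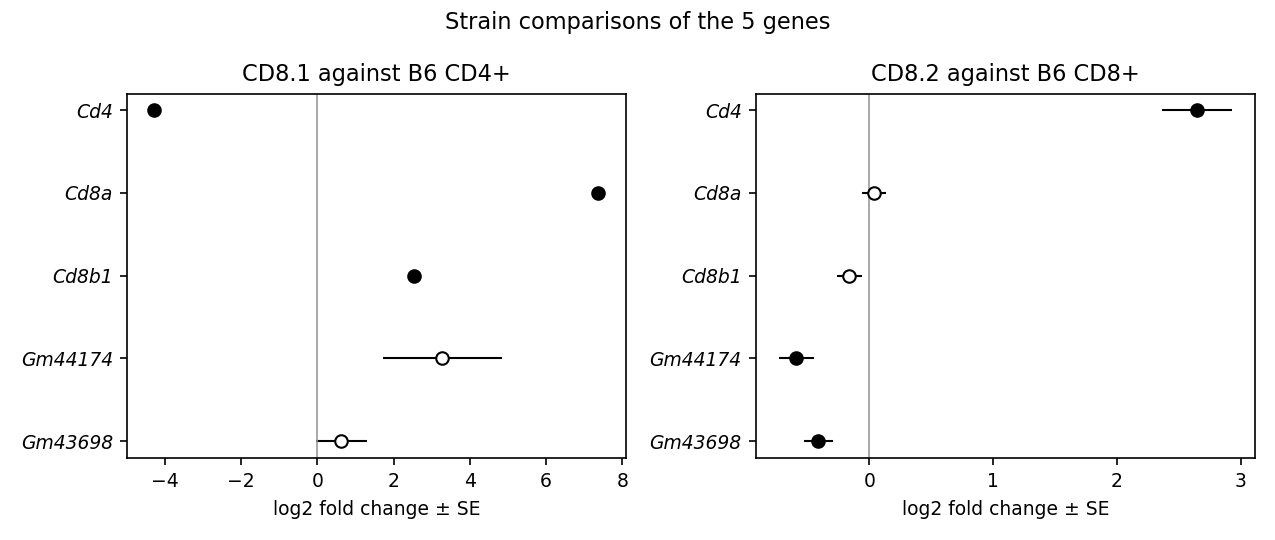
Log2 fold changes with SE (edgeR) of the 5 genes for CD8.1 against B6 CD4+ cells on the left and CD8.2 against B6 CD8+ cells on the right, on axes of different range. Filled points passed an adjusted p of 0.05. On the left the co-receptor genes passed, an outcome fixed by the altered allele and the gates. On the right *Cd4* and the 2 lincRNAs passed.

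The ratio of *Cd8a* to *Cd8b1* counts within a sample does not depend on library size. It was 0.623, 0.632 and 0.656 in B6 CD8+ cells and 0.717, 0.747 and 0.725 in CD8.2 cells. In CD8.1 cells it was 1.14, 0.909 and 0.976, and in B6 CD4+ cells 0.0227, 0.0395 and 0.0418. The 4 groups did not overlap. Exact binomial 95% intervals were narrow in cytotoxic cells, such as 0.614 to 0.631 for B6 CD8+ replicate 1, and wide in B6 CD4+ cells, such as 0.0126 to 0.0378 for replicate 1 with 15 *Cd8a* counts.

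Between CD8.2 and B6 CD8+ cells, the *Cd8a* to *Cd8b1* ratio was 1.14-fold higher in CD8.2 cells (exact permutation test, two-sided, p = 0.1, the smallest that 3 against 3 samples can give, and 0.1 after Benjamini-Hochberg adjustment over 10 ratio comparisons). Compared with B6 CD8+ cells the ratio of CD8.1 cells was 1.58-fold higher, and compared with CD8.2 cells 1.38-fold. Without CD8.1 replicate 1, which had the highest ratio, the log2 difference from B6 CD8+ cells was 0.56 in place of 0.66 and the groups kept their order. B6 CD4+ cells had a ratio 30.0-fold lower than CD8.1 cells. Their counts of *Cd8b1* were 2283 in all against 81 of *Cd8a*, and the shared stretch at the end of the *Cd8b1* transcript bears on this denominator. It can also bear on the ratio of CD8.1 cells. *Cd8b1* averaged 193.1 CPM in CD8.1 cells, beside 33.2 CPM in B6 CD4+ and 2234.9 CPM in B6 CD8+ cells.

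The lincRNAs were set against *Cd8a* in cytotoxic cells only, as they were near the floor elsewhere. *Gm44174* reached 2.43%, 2.60% and 2.26% of the *Cd8a* count in B6 CD8+ samples and 1.59%, 1.61% and 1.53% in CD8.2 samples. The groups did not overlap, and the ratio was 1.54-fold higher in B6 CD8+ cells (log2 difference 0.62, SE 0.062, exact permutation p = 0.1, adjusted 0.1). *Gm44174* to *Cd8b1* gave 1.51%, 1.64% and 1.48% against 1.14%, 1.20% and 1.11%, a 1.34-fold difference in the same direction (exact permutation p = 0.1). The lower *Gm44174* level in CD8.2 cells was thus also seen relative to *Cd8a* and to *Cd8b1* of the same samples. These ratios use the same *Gm44174* counts and are no separate support for the difference. *Cd8a* and *Cd8b1* of CD8.2 cells were at 102.6% and 89.6% of their mean B6 CD8+ levels.

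*Gm43698* to *Cd8a* was 1.73%, 1.86% and 1.69% in B6 CD8+ and 1.31%, 1.25% and 1.32% in CD8.2 samples, a 1.36-fold difference. *Gm43698* to *Gm44174* was 0.712, 0.715 and 0.749 in B6 CD8+ and 0.823, 0.780 and 0.861 in CD8.2 samples. This last ratio differed by 1.13-fold with no overlap, but the counting intervals of single samples overlapped, for example 0.639 to 0.792 in B6 CD8+ replicate 1 and 0.675 to 0.902 in CD8.2 replicate 2. Both had an exact permutation p of 0.1, the smallest possible.

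**Figure D3:**
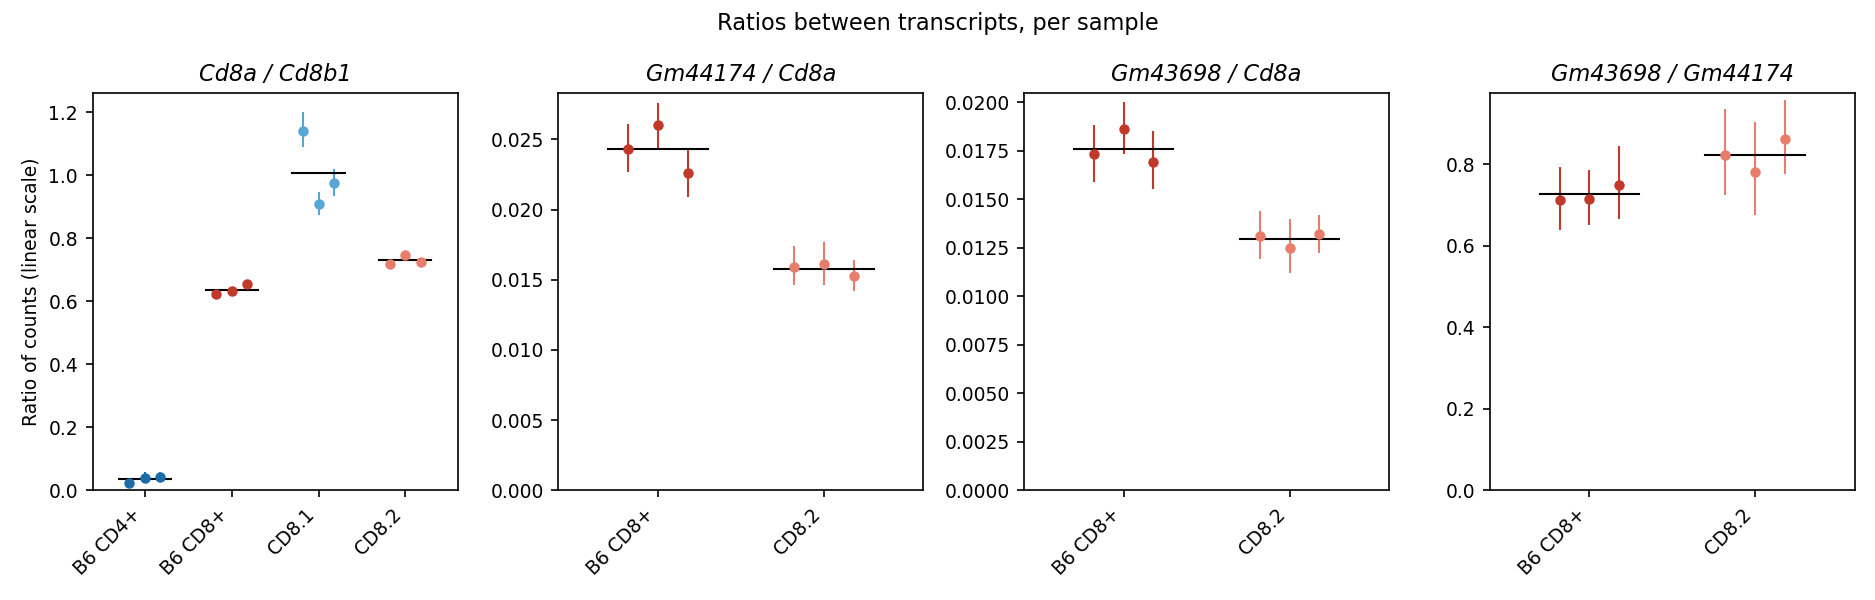
Ratios of counts per sample on linear axes from 0, with exact binomial 95% intervals and a line at each group mean. The *Cd8a* to *Cd8b1* ratio is between 0.909 and 1.14 in CD8.1 cells and between 0.623 and 0.747 in the 2 cytotoxic groups, and the ratios of the lincRNAs to *Cd8a* are lower in every CD8.2 sample than in any B6 CD8+ sample.

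Genes within 250 kb of the co-receptor genes were examined next, to describe the surroundings of the 2 loci. There were 65, of which 32 were expressed enough to be tested. Between B6 CD4+ and CD8+ cells 10 of the 32 passed, 5 in each direction, against 23.1% of all genes, and between CD8.1 and CD8.2 cells 14 passed, 10 of them higher in CD8.1, against 28.7% of all genes. Median log2 fold changes were 0.03 and 0.13 (0.00 over all genes in both).

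At the *Cd8* locus, the 2 tested genes nearest to the CD8 chains were also higher in cytotoxic than in helper cells of both strains, but had no more counts in CD8.1 than in B6 CD4+ cells. *Smyd1*, which encodes a histone methyltransferase known from muscle, begins 554 bases before the start of *Cd8b1* on the other strand. It had 20 to 34 counts in B6 CD8+ and 15 to 44 in CD8.2 samples, but 2 to 4 in B6 CD4+ and 0 to 1 in CD8.1 samples. Its log2 fold change was -3.26 (SE 0.48, adjusted p = 0.000108 by edgeR) between B6 CD4+ and CD8+ cells and -5.87 (SE 0.671, adjusted p = 9.87e-06 by edgeR) between CD8.1 and CD8.2 cells.

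*Gm44175*, a transcript on the minus strand inside the intron of *Gm44174*, had 24 to 49 counts in B6 CD8+ and 12 to 18 in CD8.2 samples, 0 to 1 in B6 CD4+ and 0 in CD8.1 samples. Its log2 fold changes were -5.26 (SE 0.623) and -6.73 (SE 0.99), with adjusted p of 2.82e-05 and 0.000213 by edgeR. The use of strand in counting is not given in the sources used here, so reads of *Gm44174* introns and of *Gm44175* cannot be told apart. Both genes are low, with at most 1.78 CPM in any sample.

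The remaining tested genes of this locus changed little. *Rnf103* was higher in B6 CD4+ than CD8+ cells by 0.58 and *Chmp3* by 0.19 on the log2 scale. In CD8.1 against CD8.2 cells, *Rmnd5a* (-0.39) and *Kdm3a* (-0.41) were lower and *Chmp3* (0.20) was higher. The *Chmp3* calls were lost in 14 and 11 alternatives. None of the 9 tested genes of the *Cd8* locus passed in either strain comparison by edgeR.

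Near *Cd4*, 6 of 23 tested genes passed between B6 CD4+ and CD8+ cells (26.1%, beside 23.1% of all genes). Between CD8.1 and CD8.2 cells 9 did (39.1%, beside 28.7%). A link of the differences to distance was not tested. *Gpr162*, a receptor gene that begins 708 bases beyond the 3′ end of *Cd4*, had log2 fold changes of 3.82 (SE 0.943, adjusted p = 0.00743 by edgeR) in B6 mice and 3.35 (SE 0.597, adjusted p = 0.000632 by edgeR) in CD8Dual mice, from at most 25 counts in a sample. *Ptms*, which encodes parathymosin, was at 33.4 to 41.8 CPM in B6 CD4+, 5.98 to 8.00 in B6 CD8+, 45.8 to 78.3 in CD8.1 and 10.1 to 14.0 CPM in CD8.2 samples. *Lag3*, which encodes a CD4-related inhibitory receptor for MHC class II, was at 7.60 to 9.27 CPM in B6 CD4+, 2.12 to 2.70 in B6 CD8+, 9.07 to 10.1 in CD8.1 and 5.10 to 8.06 CPM in CD8.2 samples.

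*Ptms* was higher in helper cells by 2.44 (SE 0.19) in B6 and 2.42 (SE 0.182) in CD8Dual mice on the log2 scale, with adjusted p of 1.08e-07 and 7.86e-08 by edgeR. For *Lag3* these were 1.82 (SE 0.182, adjusted p = 1.96e-06 by edgeR) and 0.58 (SE 0.166, adjusted p = 0.0167 by edgeR). Smaller differences between B6 CD4+ and CD8+ cells were those of *Ptpn6* (-0.59), *Tpi1* (-0.33) and *Nop2* (-0.38). CD8.1 cells exceeded CD8.2 cells for *Cdca3* (1.47), a cell division gene, and for *2010008C14Rik* (0.45), *Lpar5* (0.42), *Mlf2* (0.39), *Lpcat3* (0.33) and *Cops7a* (0.32). Of these smaller differences, the call of *Tpi1* was lost in 8 alternatives, among them the removal of any B6 CD4+ library, that of *Nop2* without B6 CD4+ replicate 1 or B6 CD8+ replicate 3, and those of *2010008C14Rik*, *Mlf2*, *Lpcat3* and *Cops7a* in 5 to 12 alternatives each, among them the removal of CD8.1 replicate 2 or 3 or CD8.2 replicate 2. They were also lost without CD8.2 replicate 1, except for *Mlf2*, and without CD8.2 replicate 3, except for *2010008C14Rik*. The *Lag3* call in CD8Dual mice was lost without CD8.1 replicate 3 or CD8.2 replicate 1 or 3 (adjusted p 0.0565 to 0.11 by edgeR).

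Between the strains, 3 of the 32 neighbours passed in CD8.1 against B6 CD4+ cells (9.38%, beside 12.8% of all genes). In CD8.2 against B6 CD8+ cells 2 passed (6.25%, beside 7.94%), and both shares were below those of all genes. All were higher in CD8Dual cells and near *Cd4*, as were 23 of the 32 tested. No pattern of place or direction is read from so few calls. *Ptms* was higher in both comparisons, by 0.80 (SE 0.168, adjusted p = 0.00747 by edgeR) and 0.81 (SE 0.196, adjusted p = 0.0201 by edgeR). *Gpr162* (1.69) and *Cdca3* (1.32) exceeded their B6 CD4+ level in CD8.1 cells. *Lag3* was higher in CD8.2 than in B6 CD8+ cells by 1.44 (SE 0.184, adjusted p = 0.000277 by edgeR), where *Cd4* itself was higher too. The *Gpr162* call was lost in most alternatives, including the removal of any B6 CD4+ library. That of *Cdca3* was lost without B6 CD4+ replicate 1 or 2 or CD8.1 replicate 2 (adjusted p 0.0869 to 0.1 by edgeR), and that of *Ptms* in CD8.2 cells without B6 CD8+ replicate 1 or 3 or CD8.2 replicate 1 or 2 (0.0586 to 0.0889 by edgeR). Without CD8.1 replicate 1 the neighbours that passed numbered 9 and 5. *Ptms* overlaps a gene on the other strand, from whose reads it cannot be told apart here.

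*Bend4*, the minus-strand neighbour of *Gm43698* on chromosome 5, encodes a BEN domain protein. It was at 43.0, 33.6 and 32.0 CPM in B6 CD8+ and 32.1, 36.3 and 35.5 CPM in CD8.2 samples. The B6 CD4+ samples were at 2.36, 0.129 and 0.808 CPM and the CD8.1 samples at 0.191, 0.442 and 0.712 CPM. It was lower in helper cells by -5.06 (SE 0.38, adjusted p = 6.84e-08 by edgeR) and -6.25 (SE 0.439, adjusted p = 3.76e-08 by edgeR) on the log2 scale. Of the 4 tested genes within 250 kb of *Gm43698*, *Bend4* was the 1 that passed in each lineage comparison, and *Tmem33* the 1 that passed in CD8.2 against B6 CD8+ cells (0.39). The *Tmem33* call was lost without any 1 of the 6 libraries compared, without B6 CD4+ replicate 1 or 2, and in the fit blocked by replicate number (adjusted p 0.0633 to 0.171 by edgeR). *Slc30a9*, the nearest gene, did not pass in any. *Bend4* did not differ detectably between CD8.2 and B6 CD8+ cells (-0.06, SE 0.267), where *Gm43698* was lower.

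**Figure D4:**
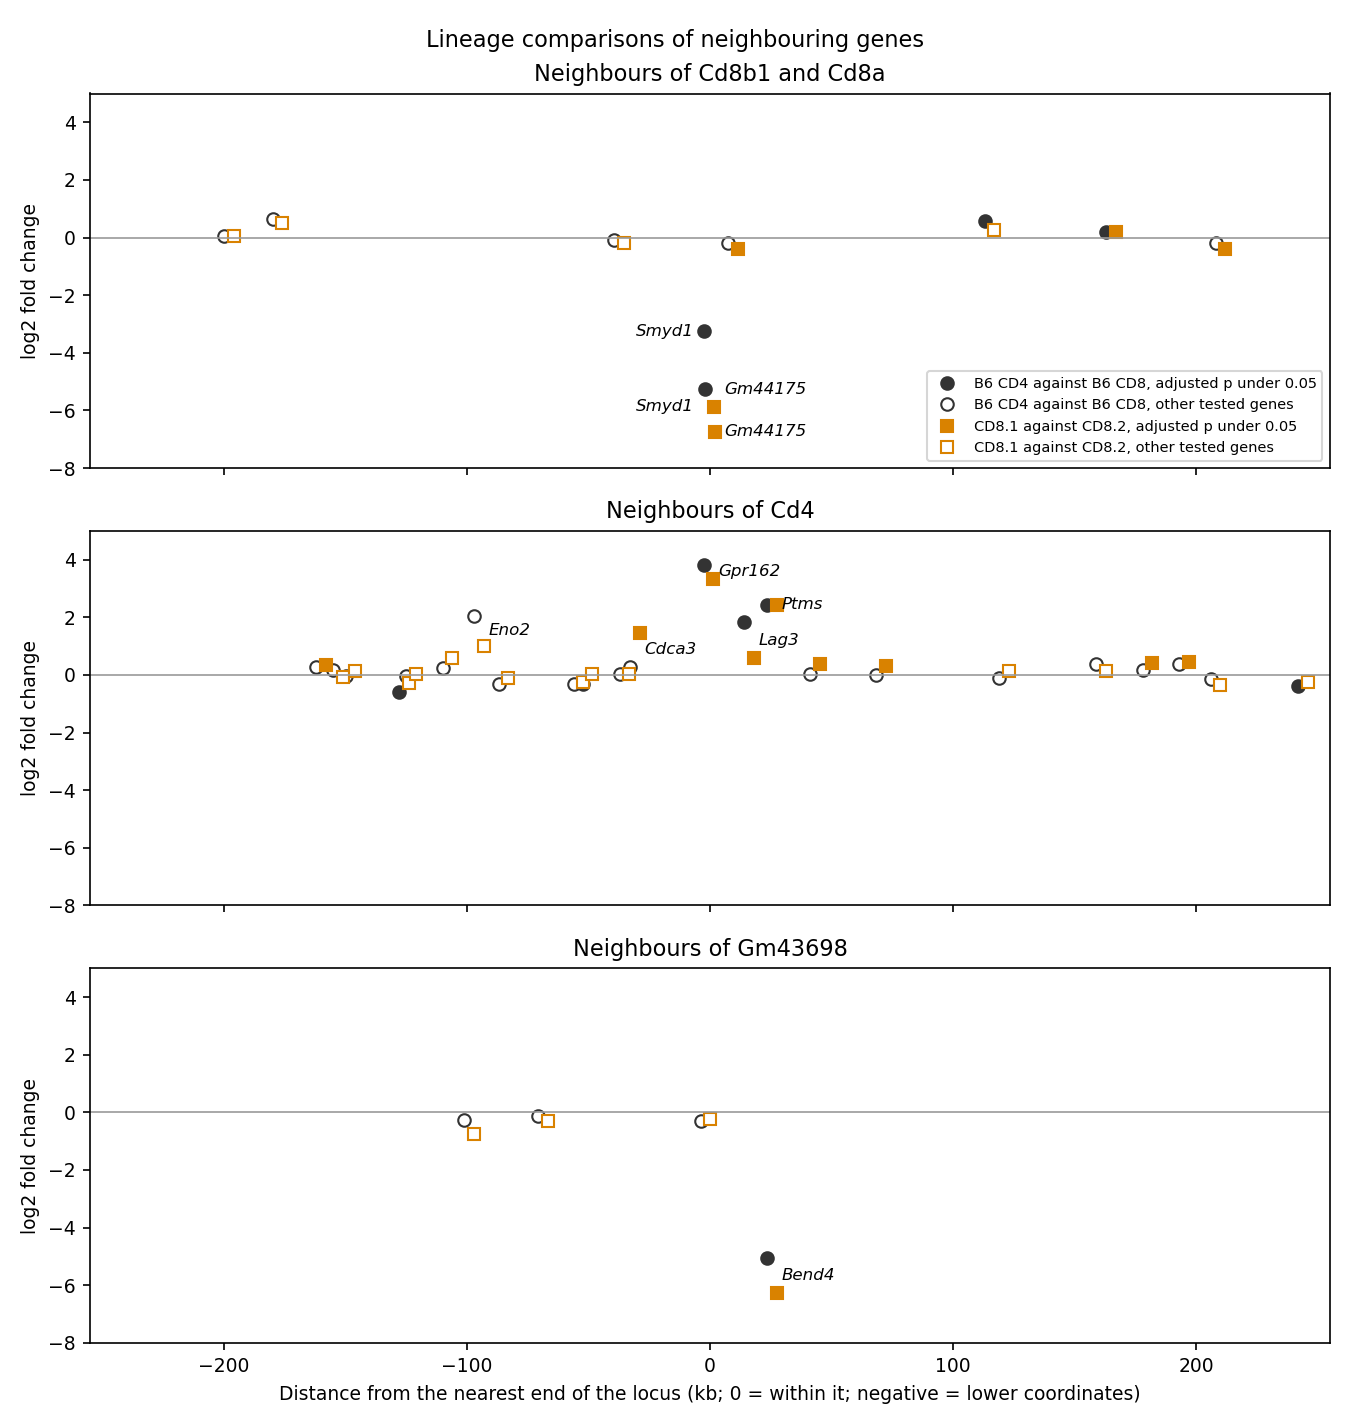
Log2 fold changes of tested neighbours by distance in kb from the locus, for B6 CD4+ against CD8+ cells (circles) and CD8.1 against CD8.2 cells (squares), drawn slightly apart for each gene. Filled points passed an adjusted p of 0.05 by edgeR. *Smyd1* and *Gm44175* are far below 0 beside the CD8 genes, *Gpr162*, *Lag3* and *Ptms* above 0 beside *Cd4*, and *Bend4* far below 0 beside *Gm43698*.

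Of 24 genes listed as regulators of the co-receptor loci, 13 passed between B6 CD4+ and CD8+ cells (8 higher and 5 lower) and 10 between CD8.1 and CD8.2 cells (7 higher and 3 lower), beside the 23.1% and 28.7% of all genes. *Zbtb7b* was at 158.9 ± 5.11, 0.931 ± 0.249, 154.1 ± 31.8 and 1.91 ± 0.267 CPM in the order B6 CD4+, B6 CD8+, then CD8.1, then CD8.2 cells (SD, n = 3). It was 1.01 higher on the log2 scale in CD8.2 than in B6 CD8+ cells (SE 0.27, adjusted p = 0.0335 by edgeR), the groups in which *Cd4* also differed. That call was lost without B6 CD8+ replicate 2 or 3 or CD8.2 replicate 1 or 2 (adjusted p 0.0713 to 0.149 by edgeR) and by limma voom (0.191). *Zbtb7b* overlaps an antisense gene.

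*Runx1*, a repressor of *Cd4* in thymocytes, was higher in helper cells by 1.47 in B6 and 1.13 in CD8Dual mice, and *Runx3* was lower by -0.83 and -0.64. *Uhrf1* (-1.14) and *Zbtb7a* (-0.86) were lower in B6 CD4+ than CD8+ cells, and *Gata3* (0.87) was higher in CD8.1 than CD8.2 cells. The *Uhrf1* call was lost without B6 CD4+ replicate 2 (-0.92, adjusted p = 0.0859 by edgeR) or B6 CD8+ replicate 3 (-0.59, adjusted p = 0.128 by edgeR). In CD8.1 against B6 CD4+ cells, 4 of the 24 passed (16.7%, beside 12.8% of all genes): *Bcl11b* (-0.59), *Ets1* (-0.41), *Satb1* (-0.40) and *Ikzf1* (-0.28). The call of *Ets1* was lost without B6 CD4+ replicate 2 and that of *Ikzf1* without B6 CD4+ replicate 1, and both were lost without CD8.1 replicate 2 or 3 and with only the groups compared (adjusted p 0.0521 to 0.0952 by edgeR). In CD8.2 against B6 CD8+ cells, 2 passed (8.33%, beside 7.94% of all genes), *Zbtb7b* and *Myb* (0.75). That of *Myb* was lost without B6 CD8+ replicate 1 or 2 or CD8.2 replicate 2 or 3 (adjusted p 0.061 to 0.0695 by edgeR). The median of the list was -0.08 in the former and -0.12 in the latter comparison, beside 0.00 over all genes. Without CD8.1 replicate 1, 7 of the 24 passed in each strain comparison.

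Of 16 partners of the co-receptors in signalling and antigen recognition, 3 passed between B6 CD4+ and CD8+ cells (18.8%, or 5 with the replicate number as a block) and 6 between CD8.1 and CD8.2 cells (37.5%), beside 23.1% and 28.7% of all genes. *Ptpn22*, a phosphatase that restrains Lck signalling, was lower in helper cells by -0.96 and -0.83, and *Themis*, which tunes T cell receptor signals, by -0.49 and -0.72. *Il16*, whose product binds CD4, was higher in B6 CD4+ than CD8+ cells (0.32). *Unc119* (1.06), a regulator of Lck, was higher and *Ptprc* (-0.48), which encodes CD45, lower in CD8.1 than CD8.2 cells.

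In CD8.1 against B6 CD4+ cells 4 partners passed (25.0%, beside 12.8% of all genes), *Unc119* (0.69), *Ptprc* (-0.48), *B2m* (0.43), the light chain of MHC class I, and *Pag1* (-0.33). The calls of *Ptprc* and *Pag1* were lost with only the groups compared and without B6 CD4+ replicate 1, and that of *Pag1* also without B6 CD4+ replicate 2 or CD8.1 replicate 2 or 3 (adjusted p 0.0516 to 0.141 by edgeR). In CD8.2 against B6 CD8+ cells *Rhoh* (0.31) and *Il16* (0.30) passed, 2 of the 16 partners beside 7.94% of all genes, with 5 partners passing without CD8.1 replicate 1. The *Il16* call was lost without any 1 of the 6 libraries compared (adjusted p 0.0561 to 0.121 by edgeR), and that of *Rhoh* without B6 CD8+ replicate 2 or 3 or CD8.2 replicate 2 or 3 (0.0561 to 0.0711 by edgeR). *Lck* itself was at 854 to 1101 CPM in all samples and passed in none of the comparisons. An interaction of strain and lineage passed for 1 of 32 neighbours (*Lag3*), 0 of 24 regulators and 1 of 16 partners (*Unc119*), against 1.87% of all genes.

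The genes whose levels varied most like each of the 5 were found by Pearson's r of log2 CPM over the 12 samples, which form 4 groups and share libraries, so that r mostly compares group means. For *Cd4* these were *Pvr* (0.976), *Tgfbr3* (0.972) and *Mpzl3* (0.971). *Pvr* averaged 40.4 CPM in B6 CD4+ cells, 27.7 in CD8.1 cells, 13.8 in B6 CD8+ cells and 14.0 in CD8.2 cells, so it shared the intermediate level in CD8.1 cells with a far smaller range. For *Cd8a* they were *Trbv12-1* (0.983), *Agpat2* (0.979) and *Trbv14* (0.974), of which the TCR β segments belong to a family whose reads are uncertain.

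*Cd8b1* was most like *Cst7* (0.997), *Zfp296* (0.994) and *Glipr2* (0.991). *Cst7*, which encodes cystatin F, averaged 10.7 CPM in B6 CD4+ cells, 28.5 in CD8.1 cells, 113.3 in B6 CD8+ cells and 100.6 in CD8.2 cells. *Gm44174* was most like *Ifitm10* (0.998), *Ehd1* (0.997) and *Dmrta1* (0.997), and *Gm43698* most like *Crtam* (0.996), *5730508B09Rik* (0.995) and *Gm44174* (0.994). By Spearman's rho, 1 of the 3 genes was the same for *Gm44174*, and 0 for each of the other 4.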

How the data were processed

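RNA-seq of LN T cells was analysed for 12 samples in 4 groups of 3, with groups and replicate numbers taken from the sample labels. Per the submitters' processing notes, STAR, RSEM, limma and mm10 were used, and the paper's methods describe alignment with STAR and counting with RSEM. Versions, the annotation release and the use of strand are not given in the sources used here. The values deposited by the authors are whole-number counts per gene, with no normalization. All columns were matched to a sample (0 unmatched).

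The model was fitted with edgeR 4.0.16 in R 4.3.3 (TMM normalization, filterByExpr, glmQLFit and glmQLFTest with 1 coefficient per group for all samples), which kept 13118 of 49585 genes. Adjusted p-values are Benjamini-Hochberg values over all tested genes, and a gene passed at 0.05. All 5 genes described passed the filter, the lincRNAs through the cytotoxic groups. The common biological coefficient of variation was 11.2%. The fitting script was tested on simulated data. Ratios were compared as mean log2 count ratios with exact permutation tests in scipy 1.17.1. Positions came from GENCODE M21 (GRCm38), in which 49326 of 49585 identifiers were found by their unversioned form. Shared sequence was searched with BLAST+ 2.17.0 and matplotlib 3.10.9 (Python 3.11.15) was used for figures. *Cd8a* was the 1 gene of the 5 found in the RefSeq promoter table.

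The genes and lists were chosen with earlier results of these data known. Genes named in the text were the 5 genes, the neighbours that passed, of the regulators and partners those that passed with the 4 largest log2 fold changes in each comparison, the 3 genes most like each of the 5, and the markers. *Slc30a9*, *Lck* and the neighbours of *Gm43698* were named after their values or positions were seen. *Chd4* is in the lists of both neighbours and regulators. Between B6 CD4+ and CD8+ T cells, samples with the same replicate number deviated together (correlation 0.126 to 0.257, beside -0.221 to 0.0999 for different numbers). The labels name no such pairing, and the p-values given for this comparison come from the model without it. Replicates differed by more than sampling noise (chi-square of 8.21 to 79.5 per gene). Alternatives were DESeq2 1.42.0 (size factors or Wald test), limma voom (3.58.1), other filters, a fold limit of 5, only the groups compared, the replicate number as a block, each sample left out, windows of 100 and 500 kb, and 0.5 added to the counts of ratios.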

Additional observations from a re-analysis of the deposited data

Results flagged for a closer look

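For 2 of the named genes, the helper-to-cytotoxic difference of B6 mice differed from that of CD8Dual mice in an interaction test (edgeR quasi-likelihood, Benjamini-Hochberg adjusted). *Lag3* had an interaction of -1.24 on the log2 scale (SE 0.246, adjusted p = 0.0131 by edgeR), as its difference between helper and cytotoxic cells was 1.82 in B6 and 0.58 in CD8Dual mice. Its level was 2.33 ± 0.321 CPM in B6 CD8+ and 6.43 ± 1.50 in CD8.2 cells (SD, n = 3). *Unc119* had an interaction of 0.87 (SE 0.207, adjusted p = 0.0453 by edgeR), with 17.2 ± 3.29 CPM in CD8.1 and 10.7 ± 0.679 in B6 CD4+ cells (SD, n = 3). The call of *Unc119* was lost without any 1 of 11 of the 12 libraries, all except CD8.1 replicate 1, and by limma voom (adjusted p 0.0599).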

How the results depend on the processing

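No direction reversed in any alternative for the 5 genes in the tested comparisons, the ratios, or the called genes of the lists. Across the single genes, at most 20 calls changed in any 1 setting, not counting the fold limit of 5. That limit was applied to counts of genes only. Between B6 CD4+ and CD8+ cells it took the regulators that passed from 13 to 1 and the neighbours from 10 to 4. Without a sample, the ratios kept their direction, and with 0.5 added to each count or the replicate number as a block they did so too (block value 0.62 for *Gm44174* to *Cd8a*, exact permutation p = 0.25, the smallest for 3 pairs). The labels do not say whether samples were paired by number. Between B6 CD4+ and CD8+ cells, where same-number samples deviated together, the block moved the count of partners from 3 to 5. It also cost the call of *Chmp3* there (adjusted p 0.0732 by edgeR). For the other comparisons, same-number correlations were -0.197 to 0.119. Between CD8.1 and CD8.2 cells they were -0.00388 to 0.119, beside -0.127 to 0.0321 for different numbers. In these comparisons the block cost 5 calls. They were *Gpr162* in CD8.1 against B6 CD4+ cells, *Tmem33* and *Gm43698* in CD8.2 against B6 CD8+ cells, and *Rhoh* and *Chmp3* in CD8.1 against CD8.2 cells. The neighbours of *Gm43698* were added after seeing the data.

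In CD8.1 against B6 CD4+ cells, 1674 genes passed, 674 with only the groups compared and 80 with a fold over 5 and unadjusted p under 0.05. Single samples left out gave 765 to 2958, the lowest without B6 CD4+ replicate 1 and the highest without CD8.1 replicate 1, with 872 without B6 CD4+ replicate 2 and 845 without CD8.1 replicate 2. Neighbours numbered 3, with 7 in a 500 kb window, 1 by the fold limit, and 1 to 9 with a sample left out. Regulators numbered 4, with 8 unfiltered, 2 with only the groups compared, 0 by the fold limit and 2 to 8 with a sample left out. Partners numbered 4, with 2 with only the groups compared, 0 by the fold limit and 2 to 6 with a sample left out.

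In CD8.2 against B6 CD8+ cells, 1042 genes passed, 1593 unfiltered, 2515 with only the groups compared and 76 by the fold limit. Single samples left out gave 431 to 1913, with 1913 without CD8.1 replicate 1 and 431 to 554 without B6 CD8+ replicate 1 or 2 or any CD8.2 sample. Neighbours numbered 2, with 8 with only the groups compared, 4 by DESeq2, 0 by the fold limit and 1 to 5 with a sample left out. Regulators numbered 2, with 7 unfiltered, 11 with only the groups compared, 4 by DESeq2, 0 by the fold limit and 0 to 7 with a sample left out. Partners numbered 2, with 4 unfiltered, 6 with only the groups compared, 4 by DESeq2, 0 by the fold limit and 0 to 5 with a sample left out.

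Between B6 CD4+ and CD8+ cells, 3030 genes passed and 431 by the fold limit. Neighbours numbered 10, with 4 by the fold limit and 6 within 100 kb. Of 13 regulators, 1 passed the fold limit. Partners numbered 3, with 5 unfiltered, 5 with the block, 5 by DESeq2, 0 by the fold limit and 3 to 7 with a sample left out. Between CD8.1 and CD8.2 cells, 3771 genes passed and 435 by the fold limit. Neighbours numbered 14, with 4 by the fold limit, 9 within 100 kb and 9 to 16 with a sample left out. By the fold limit 1 of 10 regulators and 0 of 6 partners passed.

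For the interaction, 245 genes passed, with 620 unfiltered, 410 by DESeq2, 152 by the fold limit and 165 to 1356 with a sample left out (1356 without CD8.1 replicate 1). Neighbours numbered 1, with 2 unfiltered, 2 in a 500 kb window and 1 to 7 with a sample left out. Regulators numbered 0, with 3 unfiltered, 1 by DESeq2 and 0 to 3 with a sample left out. Partners numbered 1, with 0 by limma voom, 0 by the fold limit and 0 to 3 with a sample left out. The cause of these changes was not tested. Genes at under 3 counts in helper cells cannot show differences between the helper groups at this depth.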
